A study of Caenorhabditis elegans with 2 samples.

Results

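The calcium channel and calcium store genes of muscle were examined in a map of HLH-1 binding. They are 10 genes, chosen by function: the voltage-gated calcium channel subunits egl-19, cca-1, unc-36 and ccb-1, the store release channels unc-68 and itr-1, the junctophilin gene jph-1, the calcium pump gene sca-1, and the store proteins crt-1 and csq-1. They are 10 of 19973 protein-coding genes on the 6 nuclear chromosomes, and each was looked at from 5000 bp upstream of its most 5′ annotated base to its end. HLH-1, the worm relative of MyoD, was mapped by ChIP-seq (sequencing of DNA precipitated with the factor) in whole C. elegans embryos of mixed stage and both sexes. Both libraries come from strain OP64, which carries unc-119(ed3) III and the transgene wgIs64 and expresses the factor as an eGFP fusion. They are 2 biological replicates of 1 group, with no second condition, so no comparison between conditions exists. The labels call the cell type whole organism, so a peak cannot be assigned to muscle or to any other tissue.

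In muscle, depolarisation opens L-type calcium channels in the membrane, and the calcium that enters triggers further release from the sarcoplasmic reticulum through ryanodine receptors. Junctophilin holds membrane and reticulum close together, the SERCA pump returns calcium to the store, and calsequestrin and calreticulin bind it there. HLH-1 is a basic helix-loop-helix factor of body wall muscle, and factors of this family bind E-boxes (CANNTG).

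The authors' list of peaks past the irreproducible discovery rate threshold, called the IDR list here, held 3254 peaks with scores from 32.5 to 964.9 and a median of 55.7. Each score is the authors' own value per peak whose scale is not stated, and it was read only by order within a list. The relaxed lists, which also hold background, contained 25321 peaks for the pooled data, 28959 for replicate 1 and 30000 for replicate 2. The labels and the manifest used here do not state the read depth. As a check of the labelled target, the strongest summits of the IDR list lay at hlh-1, where they ranked 1 and 2 in both replicates; the labels place a construct for this gene in the strain, so its locus may be present in extra copies. A replicate peak was matched to an IDR peak when the summits were at most 150 bp apart. By that rule 75.6% of all IDR summits had a match in replicate 1 and 99.9% in replicate 2, and 48.1% and 93.3% had one among the top 3254 peaks of that replicate.

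HLH-1 summits of the IDR list were present at 9 of the 10 genes, and itr-1 had none. Among all protein-coding genes 21.7% had at least 1 such summit in the same kind of window. Long windows collect more summits, and the calcium genes are long, with a median window of 11.4 kb against 7 kb over all protein-coding genes. By window length, 3 of 3 members under 10 kb (background 19.1%), 4 of 4 from 10 to under 20 kb (background 32.5%) and 2 of 3 of 20 kb or more (background 54%) had a summit. The 10 windows held 15 IDR summits in 168.7 kb, or 0.89 per 10 kb, against 0.34 per 10 kb over the windows of all protein-coding genes. The pooled relaxed list, which also holds background, was denser there too, with 4.21 summits per 10 kb against 2.6. The gene unc-68 had 3 summits and jph-1 had 4, where 1.16% of protein-coding genes had 3 or more and 0.381% had 4 or more. With sca-1, which had 2, these made 3 members with at least 2 summits (background 4.71%). The shares for 2, 3 and 4 or more summits cover windows of all lengths and were not split by length. The windows of unc-68, jph-1 and sca-1 were 32.4, 10.4 and 9.9 kb long, so for unc-68 above all the share is not one for its length.

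**Figure D1:**
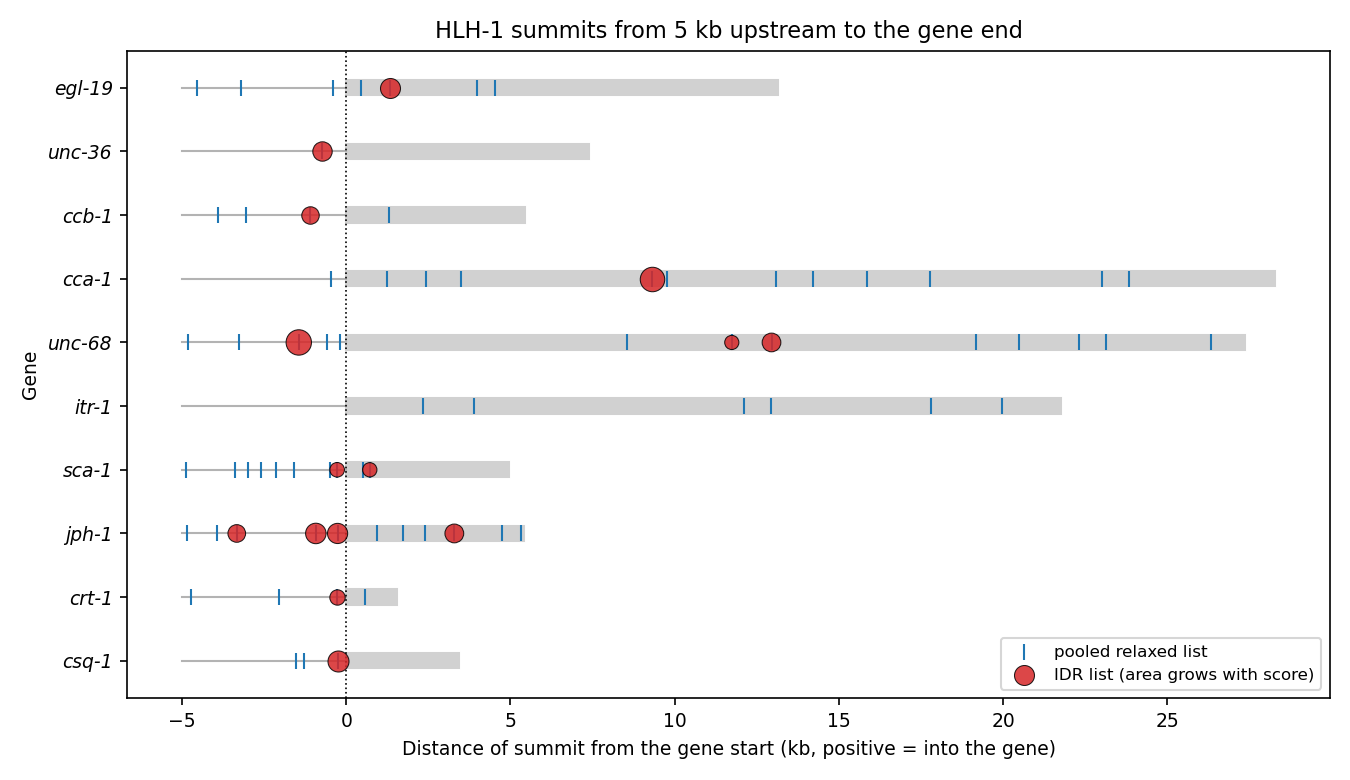
HLH-1 summits by distance from the gene start (x axis, kb; grey bar, gene body; grey line, 5 kb upstream) for the 10 genes, with blue ticks for the pooled relaxed list and red circles for the IDR list, whose area grows with score. Circles lie upstream of the start at unc-36, ccb-1, unc-68, sca-1, jph-1, crt-1 and csq-1. At egl-19 and cca-1 they lie inside the gene, as do further circles at unc-68, sca-1 and jph-1. The gene itr-1 has ticks alone.

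The summits lay upstream of the start in 9 cases and inside the gene in 6. Of the upstream summits 8 were within 1500 bp of the start, and for each of the 15 summits the nearest protein-coding start was that of the calcium gene itself. A summit from 2000 bp upstream to 500 bp downstream of the start was present at 7 members, against 12.8% of protein-coding genes. The members with a summit only elsewhere were the pore-forming channel genes egl-19 and cca-1, which carried it in an intron.

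The pore-forming subunits of the voltage-gated channels had intronic summits. The gene egl-19 (WBGene00001187, chromosome IV, 7405582 to 7418740, plus strand) encodes the L-type channel that body wall muscle needs for contraction. Its IDR peak (7406760 to 7407055) had the summit at 7406908, 1326 bp downstream of the start, in the second intron of transcripts C48A7.1a.1 and C48A7.1b.1, which is 1760 bp long. The score was 65.8 (rank 1236) in the pooled list, 9.9 (rank 1215) in replicate 1 and 53.8 (rank 1422) in replicate 2, so both replicates placed it at a similar rank. A further pooled summit 3194 bp upstream of the start, with a score of 22.7 and rank 4841, was outside the IDR list. It had a match of rank 717 (score 12.6) in replicate 1 and none in replicate 2, where the nearest summit was 155 bp away.

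The gene cca-1 (WBGene00000367, chromosome X, 7847678 to 7875954, minus strand) encodes the T-type channel, known for its part in starting action potentials in the pharynx. Its peak (7866500 to 7866795) had the summit at 7866648, 9306 bp into the gene, in an intron of 14595 bp, the first of transcript C54D2.5a.1. That summit lay 5340 bp upstream of the nearest start of another cca-1 transcript, since the gene has 7 annotated transcripts with 4 different starts. The score was 98.6 (rank 566) in the pooled list, 23.8 (rank 147) in replicate 1 and 72.1 (rank 821) in replicate 2. It was the second highest among the 15 summits, and the remaining 11 pooled summits of this window were outside the IDR list, the strongest of them at 13.9.

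Both pore-forming genes are shown with the bases up to 50 bp on either side of the summit, plus strand, since they differ in the motif present. In the cca-1 window capitals mark the E-box CAGCTG (7866628 to 7866633), whose centre was 17.5 bp from the summit. In the egl-19 window, which held no E-box, capitals mark GAGACGCAG (7406907 to 7406915), which lay 3 bp from the summit. This word was picked out after the sequences were seen.
cca-1, chrX:7866598-7866698: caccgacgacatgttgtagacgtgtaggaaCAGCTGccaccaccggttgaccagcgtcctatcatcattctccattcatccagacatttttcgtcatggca
egl-19, chrIV:7406858-7406958: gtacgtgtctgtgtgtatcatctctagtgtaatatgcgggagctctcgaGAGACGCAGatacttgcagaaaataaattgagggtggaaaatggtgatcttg

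The auxiliary subunits had their summits upstream of the start. The gene unc-36 (WBGene00006772, chromosome III, 8193843 to 8201217, minus strand) encodes an alpha2-delta subunit, which helps to bring the channel to the membrane. Its peak (8201793 to 8202088) had the summit at 8201941, 724 bp upstream of the start and inside the annotated non-coding RNA gene C50C3.15. The score was 62.0 (rank 1379) in the pooled list, 9.6 (rank 1293) in replicate 1 and 50.3 (rank 1595) in replicate 2, again at similar ranks. It was the sole pooled summit of the whole unc-36 window. The word GAGACGCAG was present here too, at 8201982 to 8201990, 45 bp from the summit, as the capitals show in the bases up to 50 bp on either side of it.
unc-36, chrIII:8201891-8201991: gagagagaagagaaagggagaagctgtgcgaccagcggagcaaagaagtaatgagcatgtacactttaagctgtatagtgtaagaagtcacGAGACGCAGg

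The same word occurred, on either strand, in 264 of 3254 IDR summit windows of the same length (8.11%) and in 16 of the windows centred 500 bp to their right (0.492%). Among the 15 summit windows of the calcium genes egl-19 and unc-36 held it, which is 13.3%. Since the word was picked out after the sequences were seen, that share is no separate evidence.

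The beta subunit gene ccb-1 (WBGene00000368, chromosome I, 3641651 to 3647082, minus strand) had its peak at 3648041 to 3648336. The summit at 3648189 lay 1107 bp upstream of the start, between genes. Its score was 50.2 (rank 1943) in the pooled list, 10.7 (rank 1013) in replicate 1 and 37.4 (rank 2445) in replicate 2. Replicate 1 thus placed it higher than replicate 2. The 4 channel subunit genes together held 4 of the 15 IDR summits, 1 each.

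The release channels differed in their peaks. The ryanodine receptor gene unc-68 (WBGene00006801, chromosome V, 6901681 to 6929038, minus strand) had the highest score of the family, and itr-1 had no IDR summit in a window of 26.8 kb. The strongest unc-68 peak (6930335 to 6930630) had its summit at 6930483, 1445 bp upstream of the start. Its score was 106.1 (rank 476) in the pooled list, 30.5 (rank 50) in replicate 1 and 81.1 (rank 661) in replicate 2. A second summit (6917301) lay 11737 bp into the gene, in an intron of 380 bp, with a score of 33.1 (rank 3186), close to the lowest score of the IDR list. It had a match of rank 2895 (score 32.3) in replicate 2 and none in replicate 1. That summit fell inside the non-coding RNA gene K11C4.9 and 165 bp from the transfer RNA gene WBGene00023105. The third (6916092), 12946 bp into the gene in a coding exon, had a score of 57.5 (rank 1565), with 9.6 (rank 1298) in replicate 1 and 49.2 (rank 1659) in replicate 2.

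The peak upstream of unc-68 is shown whole, 296 bases on the plus strand, because its E-boxes lay over 50 bp from the summit. Capitals mark CAGCTG at 6930395 to 6930400, 85.5 bp to the left of the summit, and CACCTG read on the other strand at 6930594 to 6930599, 113.5 bp to its right. GAGACGCAG was also present, on the minus strand at 6930574 to 6930582, 95 bp from the summit, and is not marked.
unc-68 upstream, chrV:6930335-6930630: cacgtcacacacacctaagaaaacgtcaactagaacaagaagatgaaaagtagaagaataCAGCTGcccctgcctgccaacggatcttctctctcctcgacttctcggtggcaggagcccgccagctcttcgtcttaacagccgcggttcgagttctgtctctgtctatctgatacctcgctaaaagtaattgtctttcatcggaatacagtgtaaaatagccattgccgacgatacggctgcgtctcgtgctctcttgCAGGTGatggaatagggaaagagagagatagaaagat

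In the coding exon of unc-68, capitals in the bases up to 50 bp on either side of the summit mark an E-box of the type CAAATG, 1.5 bp from the summit, and of the type CAGATG, 20.5 bp from it, both read on the minus strand. CAGCTG was not in this window.
unc-68 exon, chrV:6916042-6916142: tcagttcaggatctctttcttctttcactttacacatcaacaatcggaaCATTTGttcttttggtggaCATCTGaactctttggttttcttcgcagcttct

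The IP3 receptor gene itr-1 (WBGene00002173, chromosome IV, 7675174 to 7696930, plus strand) encodes the release channel opened by inositol trisphosphate, known from rhythmic contractions of the pharynx and of the sheath of the gonad and from the defecation rhythm of the intestine. Its 6 pooled summits had scores of at most 13.5, and the strongest ranked 10232 of 25321. That summit, at 7677498, lay 70 bp upstream of another itr-1 transcript start, 1 of 5 that are annotated. Its matches had ranks of 12015 (score 4.1) in replicate 1 and 10040 (score 11.2) in replicate 2. The strongest peaks of the replicates in this window lay elsewhere, with rank 7273 (score 5.0) upstream of the gene in replicate 1 and rank 7432 (score 13.9) 17805 bp into the gene in replicate 2. Among protein-coding genes with windows of 20 kb or more, 13.1% had a lower highest score than itr-1, where genes with no pooled summit count as lower. The corresponding shares were 83.7% for unc-68 and 83.2% for cca-1.

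**Figure D2:**
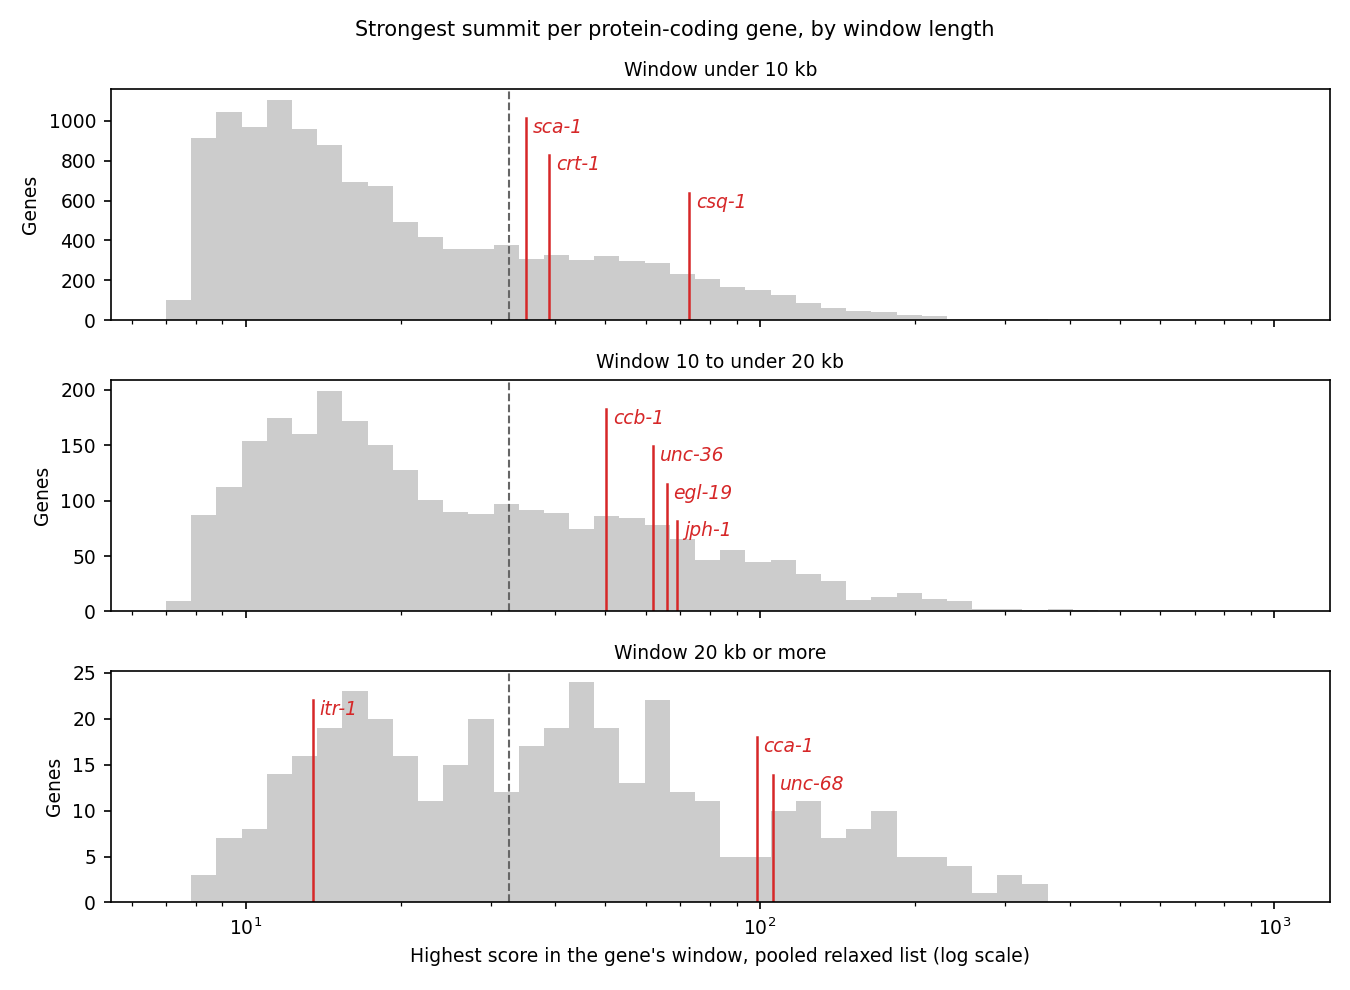
Histogram of the highest pooled score per protein-coding gene window (x axis, log scale; y axis, number of genes), in 3 panels by window length. Genes with no pooled summit in the window are not drawn. Red lines mark the calcium genes, and a dashed line marks the lowest score of the IDR list, 32.5. The line of itr-1, at 13.5, lies left of the dashed line, and those of the other members lie between 35.1 and 106.1.

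The junctophilin gene jph-1 (WBGene00002179, chromosome I, 7946193 to 7951593, minus strand), whose product bridges cell membrane and reticulum, had the most summits, 4 in a window of 10.4 kb. They lay 3333, 926 and 264 bp upstream of the start and 3290 bp into the gene, in an intron of 192 bp. The pooled scores were 51.3, 69.0, 67.0 and 58.1 in that order, and the ranks were 1877, 1140, 1194 and 1542. In replicate 2 the matches ranked 2156, 876, 1047 and 1559. Replicate 1 ranked the summit at 264 bp 1609 (score 8.9), the one at 3333 bp 3991 (score 6.3) and the one at 926 bp 22775 (score 2.8), and its nearest summit to the intronic one was 161 bp away (rank 4447, score 6.0), past the matching distance. Of the 4 summits at jph-1, 1 had a match among the top 3254 peaks of replicate 1 and 4 had one in replicate 2. The summit at 3333 bp fell inside the microRNA gene cel-mir-8209, and those at 926 and 264 bp fell inside the non-coding RNA genes T22C1.14 and T22C1.15.

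The pump and the store proteins had summits within 716 bp of the start, with scores from 33.8 at sca-1 to 72.8 at csq-1. The SERCA gene sca-1 (WBGene00004736, chromosome III, 10811906 to 10816850, minus strand) had a summit at 10817127, 277 bp upstream of the start, and another at 10816134, 716 bp downstream of it in an intron of 424 bp. The second of these was 226 bp upstream of the start of a shorter sca-1 transcript. Their scores, 35.1 (rank 2978) and 33.8 (rank 3119), were near the lowest score of the IDR list. For the upstream summit replicate 1 had a match of rank 9710 (score 4.5). The nearest summit in replicate 2 (rank 2770, score 33.6) was 174 bp away, past the matching distance. For the intronic summit replicate 2 had a match of rank 2753 (score 33.8) and replicate 1 had none. Just below the threshold, pooled summits 504 and 1604 bp upstream had scores of 29.4 (rank 3655) and 28.4 (rank 3791). In replicate 2 their matches had ranks of 2770 (score 33.6) and 3531 (score 27.0), and neither had a match in replicate 1.

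The calreticulin gene crt-1 (WBGene00000802, chromosome V, 6098992 to 6100542, minus strand), for a calcium-binding chaperone of the endoplasmic reticulum made in many cell types, had a summit at 6100809, 267 bp upstream of the start. Its score was 38.9 (rank 2654) in the pooled list, 10.9 (rank 976) in replicate 1 and 25.3 (rank 3789) in replicate 2. The calsequestrin gene csq-1 (WBGene00000822, chromosome X, 14684877 to 14688322, plus strand), for the calcium-binding protein of the sarcoplasmic reticulum, had a summit at 14684621, 256 bp upstream of the start. Its score was 72.8 (rank 1008) in the pooled list, 5.7 (rank 5298) in replicate 1 and 61.4 (rank 1127) in replicate 2. The replicates thus ordered these genes differently, with crt-1 above csq-1 in replicate 1 and below it in replicate 2. Both summits fell inside annotated non-coding RNA genes (Y38A10A.8 and F40E10.14).

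The csq-1 window is shown as an example of a summit with no E-box in its whole peak, so that it has no capitals.
csq-1, chrX:14684571-14684671: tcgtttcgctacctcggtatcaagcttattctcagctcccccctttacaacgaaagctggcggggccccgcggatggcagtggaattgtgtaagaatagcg

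**Figure D3:**
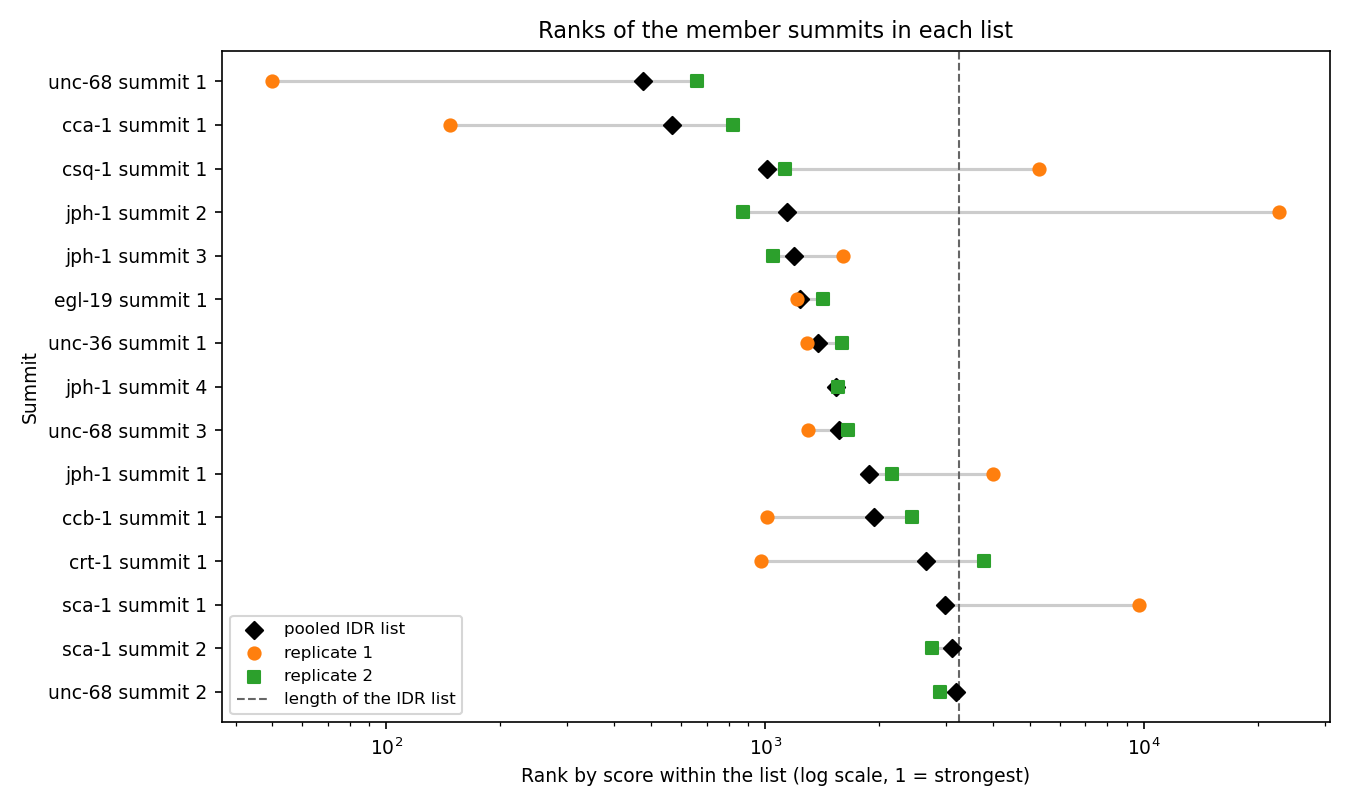
Rank by score of the 15 summits (x axis, log scale, 1 is the strongest) in the IDR list (black), replicate 1 (orange) and replicate 2 (green), with a dashed line at 3254; summits are numbered from 5′ to 3′ along each gene, and a missing symbol means no peak within 150 bp. The summits of egl-19 and unc-36 have ranks close together, and replicate 1 places unc-68 summit 1 at 50 and jph-1 summit 2 at 22775.

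Support in the replicates varied among the 15 summits. Replicate 1 had a match for 12 of them and replicate 2 for 14, and 8 and 13 of the matches were among the top 3254 peaks of that replicate. The summits with a match among the top peaks of both replicates were those of egl-19, unc-36, ccb-1 and cca-1, the upstream and exonic summits of unc-68, and the jph-1 summit at 264 bp. Each channel subunit was in this group, and none of the summits of sca-1, crt-1 and csq-1 was. Over all IDR summits 48.1% had a match among the top peaks of replicate 1 and 93.3% in replicate 2. The share with both was not computed, so this grouping is a description of few summits and was not tested. In the pooled list the 15 summits had a median rank of 1542 of 3254 and a median score of 58.1, near the 55.7 of the whole list, so the calcium genes had several peaks of middle strength and the best of them ranked 476.

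E-boxes were uncommon at these summits. By the ratio of summit windows to windows 500 bp to the right, CAGCTG stood highest among E-boxes over the IDR list (496 against 54 windows), ahead of CAACTG (586 against 166) and of CACCTG (307 against 87), and these are called leading E-boxes here. Because they are named by this ratio, their excess over shifted windows in the IDR list is no separate evidence. A leading E-box was present within 50 bp of 2 of the 15 summits (13.3%), against 1261 of 3254 IDR summits (38.8%) and 300 of the shifted windows (9.22%). The first was the CAGCTG of the cca-1 intron, and the other was a CAACTG whose centre lay 22.5 bp from the jph-1 summit found 926 bp upstream of the start. Counting the 10 distinct E-box hexamers on both strands, 4 of the 15 windows held any (26.7%), against 63.4% of all IDR summits and 31.3% of the shifted windows. The others were ccb-1, with CACATG, and the exonic summit of unc-68. No test was made of these shares, since 15 summits at 9 genes are not independent and the family was selected by function with results known.

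Over whole peaks 6 of 15 held a leading E-box (40%), against 52.4% of all IDR peaks, and 3 held CAGCTG (20%), against 20.9%. The peaks with CAGCTG were those of cca-1 and the upstream and exonic peaks of unc-68. Whole peaks with any E-box numbered 7 of 15 (46.7%), against 84.1% of all IDR peaks. None was found in the peaks of egl-19, sca-1, crt-1 and csq-1, and among the 4 peaks of jph-1 the one at 926 bp held one. The absence of a hexamer says only that these letters are not in the window.

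The hexamer GAGAGA was the more common feature. It was present in the summit windows of 7 of the 15 (46.7%), against 29.7% of all IDR summits and 5.16% of the shifted windows, and in 12 of 15 whole peaks (80%), against 50.1%. Among the 7 were jph-1 summits 1, 2 and 4, so the windows are not independent, and no test was made of these shares. GACGCA was present in 4 summit windows (26.7%, against 14.7%) and CGTCTC in 2 (13.3%, against 17.6%); both are contained in GAGACGCAG on one strand or the other, and GAGAGA overlaps it in the egl-19 window. GACGCA lay 3.5 bp from the summit at egl-19 and 0.5 bp from it at the jph-1 summit 264 bp upstream. These hexamers were named in earlier results of these data. Their excess over shifted windows in the IDR list is therefore no separate evidence.

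**Figure D4:**
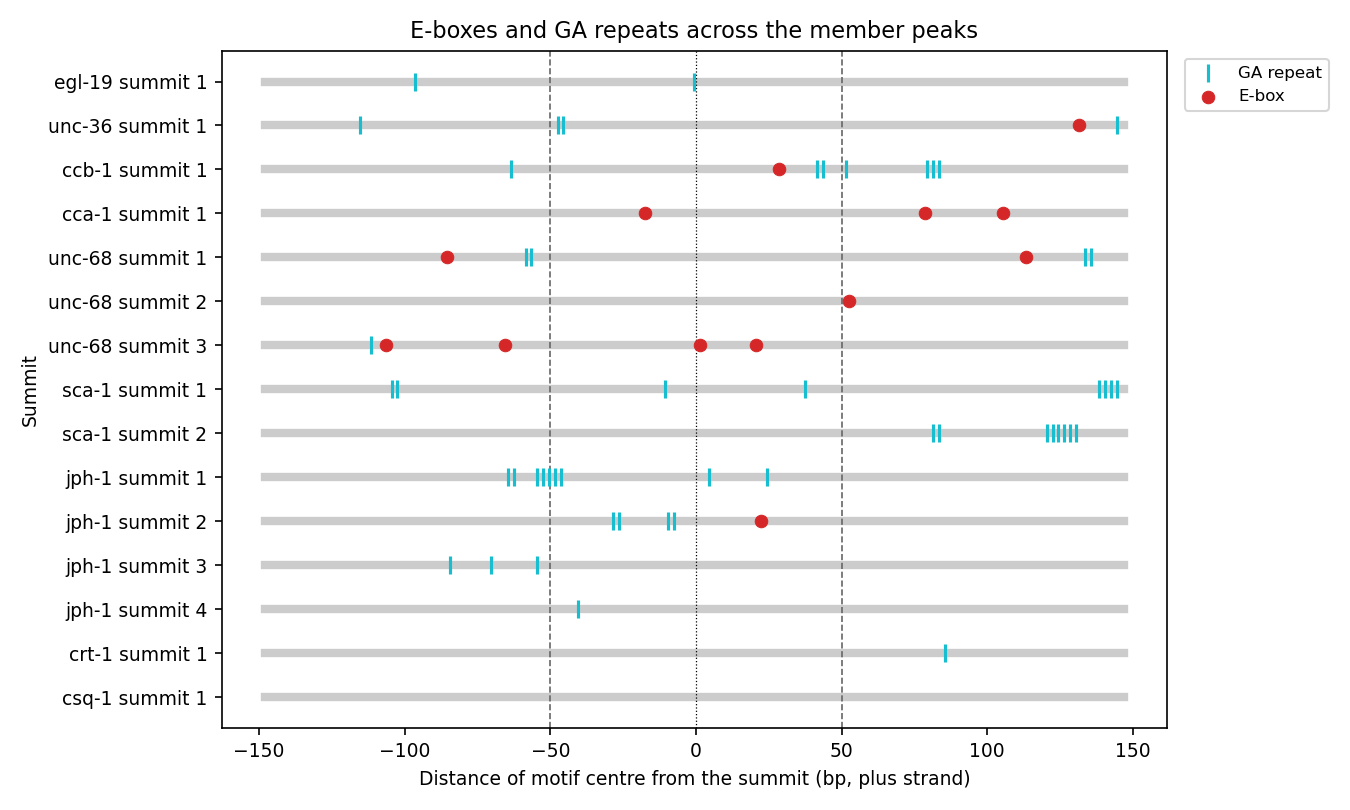
Positions of E-boxes (red circles) and of the GA repeat hexamer (cyan ticks) along the 15 peaks (grey bars), by distance of the motif centre from the summit (x axis, bp, plus strand); dashed lines are 50 bp from the summit. E-boxes within the dashed lines are seen at ccb-1, cca-1, unc-68 summit 3 and jph-1 summit 2, and ticks are found in 12 of the 15 peaks.

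Several summits of the calcium genes fell inside annotated non-coding RNA genes. This was so for 6 of 15 (unc-36, unc-68 summit 2, jph-1 summits 2 and 3, crt-1 and csq-1), against 10% of all IDR summits. For cca-1 and the upstream summits of unc-68 and sca-1 the nearest such gene was 40, 55 and 63 bp away. For the remaining summits it was from 497 bp (egl-19) to 40712 bp (ccb-1) away. Shares of all IDR summits at such distances are not given here. Strand is not resolved by these peaks, and which RNA, if any, belongs with a summit was not tested.

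Other genes of calcium entry, storage and signalling also had IDR summits in part. Of 47 listed symbols 46 matched a gene, and 15 of those had a summit (32.6%), with a median window of 11.3 kb, against 21.7% of all protein-coding genes. By window length these were 6 of 21 under 10 kb (background 19.1%), 6 of 15 from 10 to under 20 kb (background 32.5%) and 3 of 10 of 20 kb or more (background 54%). A summit from 2000 bp upstream to 500 bp downstream of the start was present at 7 of the 46 (background 12.8%). The highest scores belonged to the calmodulin gene cmd-1 (98.1, rank 572, 4792 bp upstream), the mitochondrial gene letm-1 (77.5, rank 914, 3129 bp upstream), the reticulum cation channel gene tric-1B.1 (75.1, rank 964, 2883 bp upstream), calf-1, needed for calcium channel transport out of the reticulum (73.7, rank 991, 210 bp upstream), and the kinase gene cmk-1 (69.4, rank 1128, 300 bp upstream). Whether the start of another gene lay nearer to these summits is not reported here. The neuronal channel gene unc-2, stim-1, for the calcium sensor of the store, orai-1, for the membrane channel it opens, and the mitochondrial uniporter gene mcu-1 had no IDR summit. The difference between both sets of genes was not tested.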

How the data were processed

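Per the labels, 2 biological replicates of HLH-1 ChIP-seq in embryos form 1 group, and fragments of 150 to 350 bp were selected. All files used are peak lists on ce11, the build of the reference (WBcel235). Per the deposited manifest, a relaxed list was made per replicate and from the pooled alignments with a control, and the IDR list was derived from these 3; its 3254 peaks were found to be the highest-scoring ones of the pooled list. The sources used here do not give aligner, peak caller, IDR threshold or depth. The score per peak and a −log10 q-value, equal to its maximum in 96.1% of IDR peaks and therefore not used, are the authors' deposited values. The deposited ce10 lists and the control were not used.

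Genes came from Ensembl release 115, and sequence came from the RefSeq copy of WBcel235. Coordinates are 1-based. Counting was done with Python 3.11.15 and pandas 2.3.3 and tested on simulated data. The genes, the lists and the hexamers other than E-boxes were chosen with earlier results of these data known. The genes named are the 10 members, the 5 listed calcium genes with the highest scores, and listed genes without a summit picked after their values were seen. No test was made, since 1 group holds no contrast. Alternatives were other windows, peak overlap of 1 bp, the upper part of the IDR list, either replicate alone, and other motif windows.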

Additional observations from a re-analysis of the deposited data

How the results depend on the processing

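No paired analysis was possible because the replicates form 1 group. Members with a summit numbered 9 with 2000 bp upstream (share of all protein-coding genes 15.1%), with windows ending at the next protein-coding gene (14.6%) and by peak overlap (22.4%), 7 up to 500 bp past the start (19.7%) and 6 with the 1627 highest-scoring IDR peaks (11.5%); itr-1 had none in any of these. With either replicate's top 3254 peaks alone they numbered 8: without replicate 1 (21.9%) crt-1 lost its summit, and without replicate 2 (21.3%) csq-1 did. Summits in the windows numbered 9 up to 500 bp past the start, 9 with those 1627 peaks and 10 to 14 with either replicate alone. Summits with a leading E-box numbered 4 within 100 bp, 6 over whole peaks (chosen after seeing the data) and 1 to 2 with either replicate alone. Of the 46 listed calcium genes, 10 had a summit with 2000 bp upstream (share of all protein-coding genes 15.1%) and 12 up to 500 bp past the start (19.7%). They stayed at 15 with windows ending at the next protein-coding gene and by peak overlap. They numbered 6 of 46 with those 1627 peaks (11.5%). With either replicate's top 3254 peaks alone they numbered 18 of 46 without replicate 1 (21.9%) and 10 of 46 without replicate 2 (21.3%). The 6 with those 1627 peaks and the 10 without replicate 2 were near the share of all protein-coding genes. The strongest member summit, upstream of unc-68, ranked 50 without replicate 2 and 661 without replicate 1. The cause of these shifts was not tested. Without depth, the precision of a score or rank is unknown.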
